A study of Mus musculus with 4 samples.

Results

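Genes of epithelial cell junctions, keratins and the epithelial to mesenchymal transition (EMT) were compared between wild-type and Bmal1-/- mouse embryonic stem cells (mESCs). The 38 genes were taken by symbol, matched to the Ensembl identifiers of a deposited table of 37310 genes, and all 38 were found there. They comprise 5 adherens junction genes, 12 tight junction genes, 6 desmosome genes, 4 keratins, 4 regulators of the epithelial state and 7 mesenchymal or EMT genes. The series holds mRNA-seq of 4 libraries, 2 labelled wild-type and 2 labelled Bmal1-/-. Both groups are JM8 mESCs, a line from C57BL6/N mice, grown without feeder cells on gelatin in 2i + LIF medium. In this medium 1 µM PD0325901 inhibits Mek, 3 µM CHIR99021 inhibits Gsk3, and leukaemia inhibitory factor (LIF) is added. The Bmal1-/- cells are a clonal line made with CRISPR/Cas9 that carries insertions or deletions in both alleles of Bmal1, the core activator of the circadian clock, and the wild-type cells are the parental line. Each label therefore stands for 1 line, and a difference between the lines other than Bmal1 cannot be told apart from the genotype. The labels call the libraries of a group separate experiments, and the study's methods describe them as biological duplicates of each line. P-values therefore rest on the spread between duplicates of 1 line, estimated in large part from all genes tested together.

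Epithelial cells are held together by several kinds of junction. Adherens junctions join neighbours through E-cadherin (Cdh1) and the catenins that tie it to actin, tight junctions seal the gap between cells with claudins and occludin, and desmosomes anchor keratin filaments through desmosomal cadherins, plakoglobin and plakophilins. mESCs are themselves epithelial in kind: they grow as compact colonies held by E-cadherin. In EMT, transcription factors of the Snai, Zeb and Twist families repress Cdh1 and other junction genes by binding E-box sequences, and vimentin (Vim), the intermediate filament protein of mesenchymal cells, rises. Grhl2, Ovol1 and the splicing factors Esrp1 and Esrp2 maintain the epithelial state. Bmal1 itself activates its targets through the canonical E-box, CACGTG.

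The deposited value of a gene is its read count divided by a scaling factor of the library (trimmed mean of M values, TMM), called the normalized value here. The libraries held between 21504265 and 23329034 reads on genes, at which 3 reads correspond to a normalized value of 2.82 to 3.19. Bmal1, listed as Arntl (ENSMUSG00000055116), had 678 and 733 in wild-type and 556 and 590 in Bmal1-/- libraries, or 81.2% of the wild-type mean. Reads of the gene were thus present under both labels and do not check the genotype. The study itself reported that RT-qPCR found no Bmal1 mRNA, and Western blot no Bmal1 protein, in its Bmal1-/- cells. Of the naive pluripotency markers 11 of 12 were matched, and their summed value lay between 102740 and 105284 in all 4 libraries. Fibroblast markers summed to 1594 to 1731, of which Fbln1 made up the most, and the defining genes Dcn and Lum were at 0 in every library. Thy1, on the same list, rose from 33.7 and 42.5 to 53.5 and 62.0. Col1a1 had 34.8 and 29.7 against 52.6 and 34.3, with overlapping groups. The summed markers of primitive endoderm (11544 to 12157, mostly Sparc), trophoblast (1409 to 1557, with 8 of 9 genes matched) and primed pluripotency (3402 to 3704) differed little in range between labels. These sums rest on a few abundant genes, and single genes did move. Of the 11 naive markers 5 rose and 5 fell, none past 2-fold, with the largest change in Dppa3, which fell to 51.7% of the wild-type mean. The trophoblast markers Eomes and Cdx2 fell to 56.2% and 59.4%, while Tead4 and Ascl2 of the same list rose to 120% and 149%. Gata4 (endoderm) rose to 147%. Of the endoderm markers too low to test, Gata6 and Foxa2 had lower values, Dab2 and Amn higher ones, and Cubn overlapped. Pdgfra and Sparc of that list did not pass. Among the primed markers Dnmt3a rose to 150%, while Dnmt3b fell to 83.6%. Lef1, a Wnt pathway factor that is also on the primed list, fell from 191 and 131 to 70.4 and 64.8. Sox17, an endoderm factor, rose from 10.5 and 14.9 to 32.9 and 30.5. The part of such cells in the results was not tested. In bulk RNA, fewer cells of a type and less RNA per cell cannot be told apart.

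Of the 38 genes, 35 had a mean normalized value of at least 10 and entered the test (limma on log2(value + 1) over 14510 genes, with Benjamini-Hochberg adjustment). Called genes had a change above 2-fold and an adjusted p under 0.05. SE denotes the standard error of the fit. By this rule 9 of the 35 were called (25.7%), against 7.21% of all genes tested. The 38 genes and the related lists were chosen with earlier results of these data known. Such shares therefore describe the genes chosen, and their difference from all genes was not tested. The claudin Cldn9, the epithelial transcription factor Grhl2 and the EMT factor Snai1 were higher in Bmal1-/- libraries (3 genes, where 5.75% of all genes were called higher). Cldn4, Marveld3, Crb3, Esrp1, Vim and Pdlim4 were lower (6 genes, where 1.45% of all genes were called lower). Without the fold limit 10 genes rose, where 24.0% of all genes did, and 15 fell, where 28.6% of all genes did, and 10 did not pass. Together 71.4% of the genes tested changed, against 52.6% of all genes. The libraries of the groups did not overlap for 12 genes that were higher (34.6% of all genes) and 18 that were lower (41.4% of all genes), against 76.0% of all genes in either direction. The median log2 fold change was −0.07 over the 35 genes, beside −0.03 over all genes tested. All fold changes are on the log2(value + 1) scale, Bmal1-/- against wild-type, on which the changes of weakly expressed genes appear smaller.

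**Figure D1:**
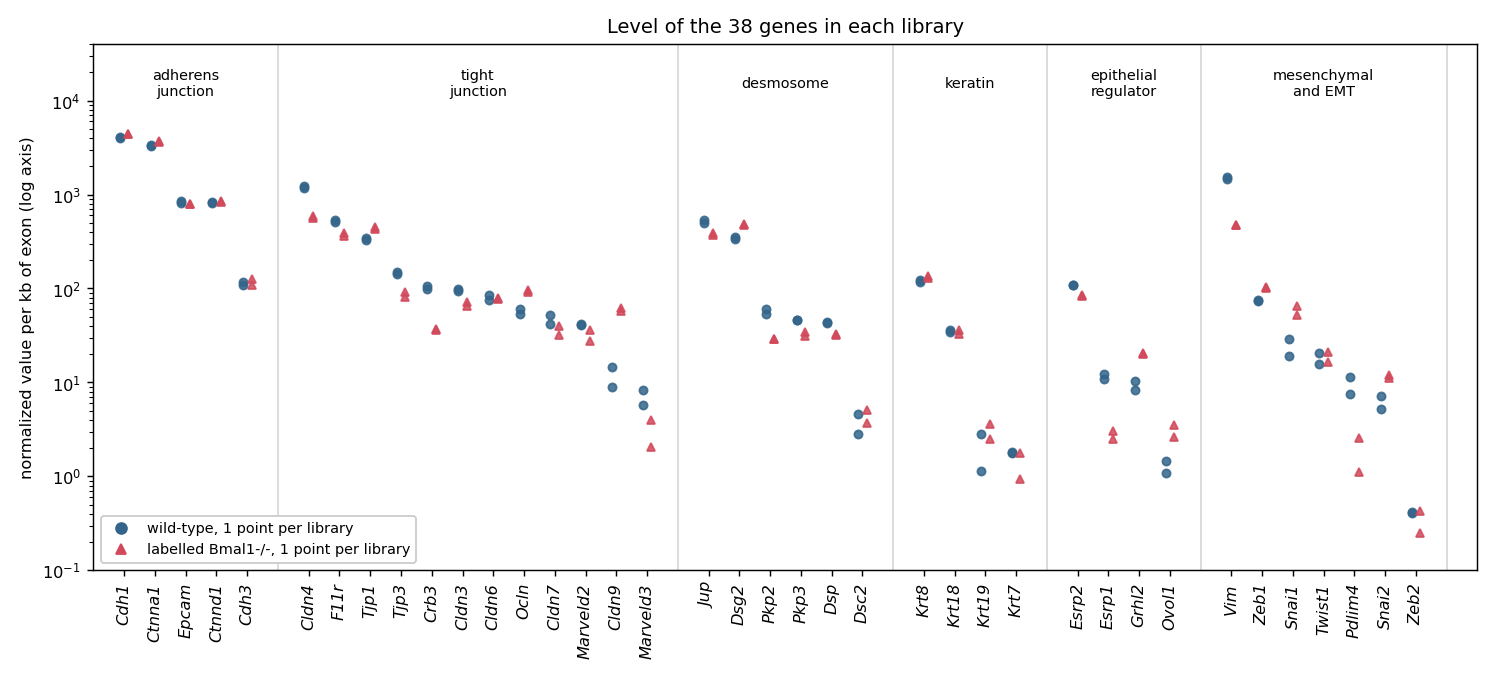
Normalized value per kilobase of exon of each of the 38 genes (log axis) in the 4 libraries, grouped by role, with 1 point per library. Cdh1 lies at the top in all libraries, the points of Vim and Cldn4 separate widely by label, and Zeb2 lies lowest, at 0.248 to 0.428.

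Promoter sequence was examined because the Snai and Zeb factors, like Bmal1, read E-box motifs. RefSeq promoter windows of 300 bases (250 before and 50 after the transcription start, GRCm38.p6 table) were found for 22 of the 38 genes, as 31 windows, and each window matched 1 place in mm9 exactly. The following stretches, the 250 bases before a start, are from called members (Cldn4, Crb3, Snai1 and Vim) and from Tjp3, whose promoter holds the canonical E-box. They are printed 5′ to 3′ on the gene's strand, with mm9 coordinates, and capitals mark the canonical E-box CACGTG and the Snai and Zeb type CACCTG, which reads CAGGTG where it lies on the opposite strand.
Cldn4, chr5:135422805-135423054, minus strand: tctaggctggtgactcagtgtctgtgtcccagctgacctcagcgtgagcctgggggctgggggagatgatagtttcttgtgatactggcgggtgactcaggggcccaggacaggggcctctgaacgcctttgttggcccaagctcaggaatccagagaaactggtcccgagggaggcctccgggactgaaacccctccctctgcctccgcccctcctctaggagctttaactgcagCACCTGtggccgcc
Crb3, chr17:57201374-57201623, plus strand: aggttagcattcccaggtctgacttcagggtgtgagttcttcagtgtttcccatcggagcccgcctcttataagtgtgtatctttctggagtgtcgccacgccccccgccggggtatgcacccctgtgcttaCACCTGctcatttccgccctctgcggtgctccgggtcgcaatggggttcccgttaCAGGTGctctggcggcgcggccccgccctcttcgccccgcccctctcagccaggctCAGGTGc
Tjp3, chr10:80754013-80754262, minus strand: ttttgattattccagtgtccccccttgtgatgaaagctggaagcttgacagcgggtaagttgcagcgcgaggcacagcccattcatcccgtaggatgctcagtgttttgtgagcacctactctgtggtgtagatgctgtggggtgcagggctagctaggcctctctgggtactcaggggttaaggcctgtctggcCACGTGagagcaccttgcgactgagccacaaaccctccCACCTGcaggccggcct
Snai1, chr2:167363445-167363694, plus strand: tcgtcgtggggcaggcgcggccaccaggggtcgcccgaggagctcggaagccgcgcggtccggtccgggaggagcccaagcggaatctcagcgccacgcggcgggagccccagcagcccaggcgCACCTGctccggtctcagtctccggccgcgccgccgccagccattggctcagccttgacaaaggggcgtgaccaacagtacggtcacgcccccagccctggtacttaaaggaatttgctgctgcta
Vim, chr2:13495688-13495937, plus strand: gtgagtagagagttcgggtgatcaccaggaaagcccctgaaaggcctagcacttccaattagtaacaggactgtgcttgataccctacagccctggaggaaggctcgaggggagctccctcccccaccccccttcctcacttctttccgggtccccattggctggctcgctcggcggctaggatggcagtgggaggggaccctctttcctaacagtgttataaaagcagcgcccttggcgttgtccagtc
The Crb3 start lies 3096 bp inside the gene as annotated in mm9, and the Vim start 384 bp inside.

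Of the 5 adherens junction genes 2 rose and 3 did not pass the test, and none changed past 2-fold. The share that changed was 40.0%, against 52.6% of all genes tested. Per kilobase of exon, Cdh1 (ENSMUSG00000000303) had a wild-type level of 4043, above 97.9% of the genes tested, followed by alpha-catenin (Ctnna1) with 3334, Epcam with 828, p120-catenin (Ctnnd1) with 823 and P-cadherin (Cdh3) with 113. Cdh1 was at 18928 and 18054 in wild-type and 20234 and 20098 in Bmal1-/- libraries. Its log2 fold change was 0.13 ± 0.04 (SE, limma adjusted p = 0.0085), and the rise did not pass under 4 of 15 alternatives, among them without wild-type replicate 2 (adjusted p = 0.053) and without Bmal1-/- replicate 1 (0.065). Ctnna1, which links the cadherin complex to actin, rose from 12236 and 12423 to 13451 and 13756, with a log2 fold change of 0.14 ± 0.04 (SE, limma adjusted p = 0.0032). The rise of Ctnna1 did not pass in limma without the trend (adjusted p = 0.10). Without Bmal1-/- replicate 2 the adjusted p of Ctnna1 was 0.052. The other members did not pass the test. Cdh3 had 437 and 467 against 504 and 438 (95% interval of the log2 fold change −0.12 to 0.23), with overlapping groups. Ctnnd1, which stabilizes cadherin at the membrane, had 6065 and 5981 against 6279 and 6156 (−0.04 to 0.13). Its groups did not overlap, and it did pass with equal library totals (limma adjusted p = 0.028) and with quantile normalization (0.034). Epcam, an adhesion protein of epithelia and mESCs, had 1639 and 1739 against 1604 and 1612 (−0.18 to 0.04). No interval of these 3 genes reached beyond 0.23 on the log2 scale in either direction.

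Tight junction genes moved in both directions. Of the 12, 3 rose (Cldn9, Ocln and Tjp1), 7 fell (Cldn3, Cldn4, Tjp3, F11r, Marveld2, Marveld3 and Crb3) and 2 did not pass (Cldn6 and Cldn7), with a median log2 fold change of −0.43. Those that rose or fell made up 83.3%, against 52.6% of all genes tested. Among the transmembrane proteins, Cldn4 (ENSMUSG00000047501) fell from 2253 and 2136 to 1064 and 1021, which is 47.5% of the wild-type value. Its log2 fold change was −1.07 ± 0.05 (SE, limma adjusted p = 8.5e-13), and every library of one label lay far from those of the other. Cldn3, a claudin encoded next to Cldn4, fell from 124 and 118 to 81.7 and 90.6 (log2 fold change −0.49 ± 0.15 SE, limma adjusted p = 0.0083), and did not pass without Bmal1-/- replicate 1 (adjusted p = 0.081) or in DESeq2 (0.14). Cldn6, a claudin typical of early embryonic epithelia, had 115 and 127 against 116 and 120, with overlapping groups and an interval of −0.32 to 0.25. Cldn7 had 81.1 and 101 against 62.0 and 77.2 (log2 fold change −0.38, limma adjusted p = 0.076), and although its groups did not overlap it did not pass, except without wild-type replicate 1 (adjusted p = 0.016) and with quantile normalization (0.013). Cldn9 (ENSMUSG00000066720) went the other way, from 21.1 and 12.7 to 81.7 and 88.7. It was 5.04-fold higher in Bmal1-/- libraries (log2 fold change 2.31 ± 0.25 SE, limma adjusted p = 2.2e-07), and its lowest Bmal1-/- value was well above its highest wild-type value.

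The MARVEL-domain proteins, which sit beside claudins in the tight junction, split in direction. Occludin (Ocln) rose from 229 and 256 to 403 and 385 (log2 fold change 0.70 ± 0.09 SE, limma adjusted p = 2.3e-06). Tricellulin (Marveld2), found where several cells meet, had 142 and 137 against 93.9 and 122 (log2 fold change −0.38 ± 0.15 SE, limma adjusted p = 0.034). Leaving out Bmal1-/- replicate 1 moved its log2 fold change to −0.19, and leaving out wild-type replicate 1 to −0.35. With all libraries kept the fall of Marveld2 did not pass in DESeq2 (adjusted p = 0.27). In limma it did not pass with no filter on low values (adjusted p = 0.16), without the trend (0.12) or with equal library totals (0.072). Marveld3 was low throughout, with 27.4 and 19.1 (26 and 18 reads) against 13.2 and 6.68 (14 and 7 reads). Its log2 fold change was −1.20 ± 0.39 (SE, limma adjusted p = 0.013), and without Bmal1-/- replicate 2 it was −0.76, with an adjusted p of 0.16. Without wild-type replicate 1 it was −0.95 and did not pass either. With all libraries kept it did not pass in DESeq2 (adjusted p = 0.14), with no filter on low values (0.12) or in limma without the trend (0.083).

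Crumbs 3 (Crb3, ENSMUSG00000044279), the apical polarity protein that positions the tight junction, showed a larger fall. Its values were 153 and 168 in wild-type and 56.4 and 58.2 in Bmal1-/- libraries, 35.7% of the wild-type mean (log2 fold change −1.47 ± 0.15 SE, limma adjusted p = 8.2e-08). The junctional adhesion molecule F11r fell from 1438 and 1367 to 964 and 1046 (log2 fold change −0.48 ± 0.06 SE). Both ranges are apart, and the call of Crb3 held under all 15 alternatives. The cytoplasmic scaffolds differed in sign: ZO-1 (Tjp1) rose from 2544 and 2430 to 3168 and 3295 (log2 fold change 0.38 ± 0.05 SE), while ZO-3 (Tjp3) fell from 432 and 449 to 248 and 276 (log2 fold change −0.75 ± 0.09 SE). The adjusted p from limma was 8.1e-07 for Tjp1 and 5.6e-07 for Tjp3.

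**Figure D2:**
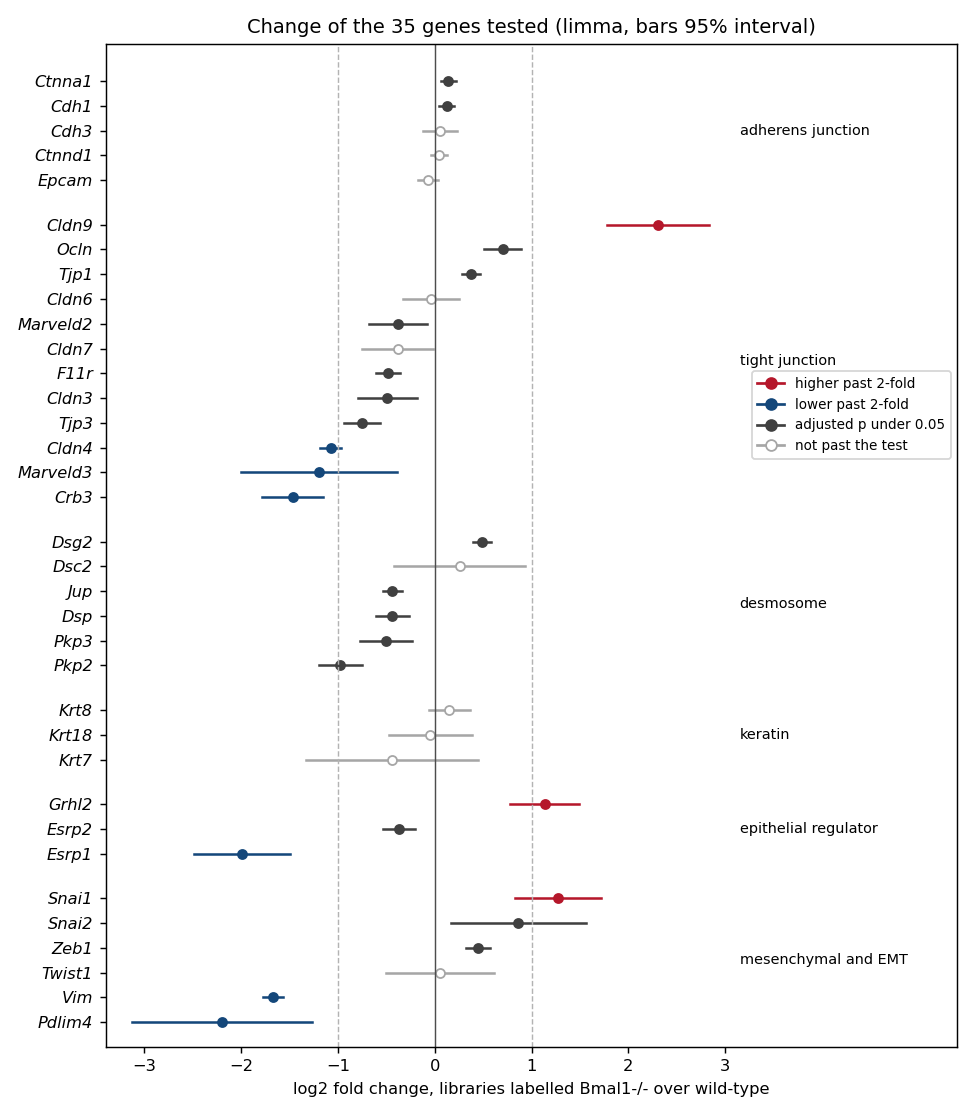
Log2 fold change (Bmal1-/- against wild-type) of the 35 genes tested, ordered within each role, with bars for the 95% interval and dashed lines at 2-fold in either direction. Filled points passed the test, red and blue ones past 2-fold. Cldn9, Grhl2 and Snai1 lie beyond the upper line, and Cldn4, Marveld3, Crb3, Esrp1, Vim and Pdlim4 beyond the lower one.

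The claudins as a family showed a shift in make-up. Per kilobase of exon, the 19 claudin genes among the members and the related lists below summed to 1696 and 1646 in wild-type and to 1053 and 1091 in Bmal1-/- libraries. Claudins outside these lists are not in the sum. Cldn4 held 73.5% and 71.7% of this sum in wild-type and 55.9% and 51.7% in Bmal1-/- libraries. Cldn12, the next most abundant of these claudins, had normalized values of 779 and 798 against 749 and 832 (log2 fold change 0.00, limma adjusted p = 0.99), and its share went from 11.3% and 11.9% to 17.5% and 18.7%. The fall of the sum thus lay mostly in the Cldn4 term. Cldn9 went from 0.867% and 0.540% to 5.41% and 5.67% of the claudin sum. The listed claudins with a normalized value of at least 10 numbered 8 in each wild-type library and 10 in each Bmal1-/- library. The shares are of mRNA per length and carry no test, since a fall of the largest term raises every other share.

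**Figure D3:**
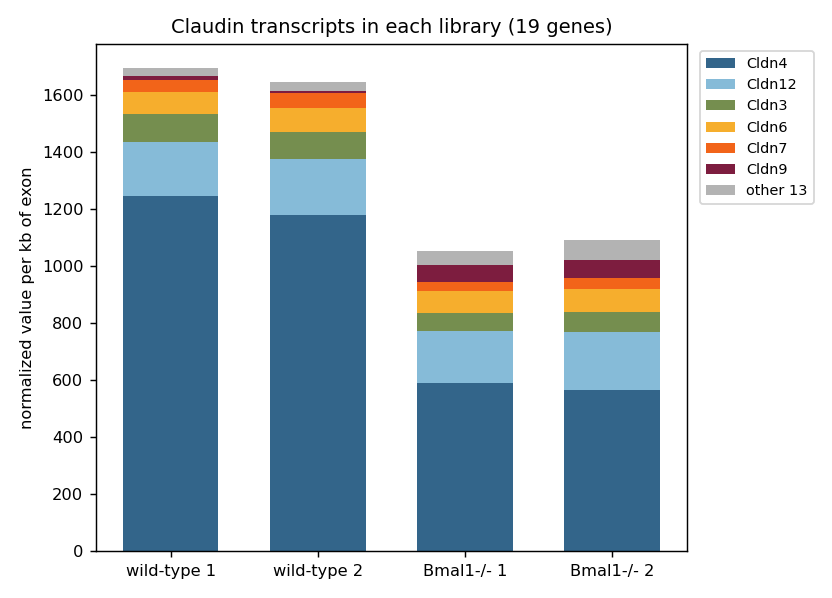
Normalized value per kilobase of exon of the 19 listed claudin genes, stacked for each of the 4 libraries from 0. The Cldn4 segment shrinks from 1246 and 1181 in wild-type to 588 and 565 in Bmal1-/- libraries, and the other segments change little beside it.

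Of the desmosome genes 4 fell, 1 rose and 1 did not pass, with a median log2 fold change of −0.44 and none past 2-fold. Together 83.3% changed, against 52.6% of all genes tested. Plakoglobin (Jup), shared with adherens junctions, fell from 3430 and 3211 to 2535 and 2371 (log2 fold change −0.44 ± 0.05 SE, limma adjusted p = 2.5e-07). Desmoplakin (Dsp), the link to keratin filaments, fell from 415 and 425 to 308 and 312 (log2 fold change −0.44 ± 0.08 SE). The plakophilins bind the desmosomal cadherins on the inner side. Pkp2 fell from 288 and 327 to 156 and 155 (log2 fold change −0.97 ± 0.11 SE, limma adjusted p = 2.0e-07), just under 2-fold, and Pkp3 from 166 and 167 to 123 and 112 (log2 fold change −0.50 ± 0.13 SE), which did not pass in DESeq2 (adjusted p = 0.067). The fall of Pkp2 came to −1.07 without wild-type replicate 1 and to −1.05 with quantile normalization, both past 2-fold. The cadherins themselves did not follow. Desmoglein 2 (Dsg2) rose from 2921 and 2749 to 3933 and 4027 (log2 fold change 0.49 ± 0.04 SE, limma adjusted p = 1.7e-08). Desmocollin 2 (Dsc2) was low, with 24.2 and 14.9 against 19.7 and 26.7, and its interval of −0.42 to 0.94 was wide.

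No keratin member passed the test in limma, edgeR or DESeq2, and in limma none had an unadjusted p under 0.05. Krt8 and Krt18 pair to form the keratin filaments of simple epithelia. Krt8 had 214 and 222 against 236 and 248 (interval of the log2 fold change −0.06 to 0.36), and Krt18 had 48.5 and 51.0 against 50.7 and 45.8 (−0.47 to 0.38). Per kilobase, Krt8 exceeded Krt18 by 3.42 and 3.38 times in wild-type and by 3.61 and 4.20 times in Bmal1-/- libraries. Krt7 had 12.6 and 12.7 against 6.58 and 12.4, that is 12 and 12 reads against 7 and 13, with an interval of −1.33 to 0.44. Krt19 was at 2.12 to 6.68 in the 4 libraries and was not tested. The interval of Krt7 includes a fall past 2-fold.

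Among the regulators of the epithelial state, the splicing factors fell and Grhl2 rose. Esrp1 (ENSMUSG00000040728), which directs epithelial patterns of alternative splicing, had 76.9 and 68.0 in wild-type and 16.0 and 19.1 in Bmal1-/- libraries. The fall to 24.2% of the wild-type mean (log2 fold change −1.99 ± 0.24 SE, limma adjusted p = 7.4e-07) was the 9th lowest log2 fold change of the 14510 genes. Its paralog Esrp2 fell from 469 and 474 to 369 and 360 (log2 fold change −0.37 ± 0.08 SE, limma adjusted p = 0.00048). Esrp2 was already the more abundant in wild-type, by 8.86 and 10.1 times per kilobase, and exceeded Esrp1 by 33.6 and 27.5 times in Bmal1-/- libraries. Grhl2, a transcription factor that activates Cdh1 and claudin genes in epithelia, rose from 56.9 and 45.7 to 112 and 114 (log2 fold change 1.13 ± 0.17 SE, limma adjusted p = 1.4e-05). It came to 0.98 without wild-type replicate 2 and 0.92 with quantile normalization, both with an adjusted p under the threshold. Ovol1, a repressor of EMT factors, was at 4.21 and 3.19 against 10.3 and 7.63 and was not tested.

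The mesenchymal and EMT genes did not move as a block: 3 rose, 2 fell and 1 did not pass, with a median log2 fold change of 0.25. Together 83.3% of those tested changed, against 52.6% of all genes tested. Vim (ENSMUSG00000026728) had 3626 and 3458 in wild-type and 1117 and 1106 in Bmal1-/- libraries. It was 3.19-fold lower (log2 fold change −1.67 ± 0.05 SE, limma adjusted p = 2.0e-16), and the gap between the labels was many times the spread within them. Per kilobase, Vim stood at 0.375 of the Cdh1 level in both wild-type libraries and at 0.108 in both Bmal1-/- libraries. Of the repressors of Cdh1, Snai1 (ENSMUSG00000042821) rose from 47.4 and 30.8 to 105 and 83.9 (log2 fold change 1.28 ± 0.21 SE, limma adjusted p = 4.3e-05). Its wild-type libraries differed from each other, and the rise was 0.97 on the log2 scale once wild-type replicate 2 was left out. Zeb1 rose from 729 and 719 to 973 and 1003 (log2 fold change 0.45 ± 0.06 SE, limma adjusted p = 2.9e-06). Snai2 had 14.7 and 10.6 against 24.4 and 22.9 (log2 fold change 0.87 ± 0.33 SE, limma adjusted p = 0.035), and it did not pass under 6 of 14 alternatives, among them without wild-type replicate 2 (adjusted p = 0.14), without Bmal1-/- replicate 1 (0.16) and without Bmal1-/- replicate 2 (0.12). Twist1 had 25.3 and 32.9 against 33.8 and 26.7, with overlapping groups, and Zeb2, at 3.81 to 6.58, was not tested. Higher values of Snai1, Snai2 and Zeb1 thus stood beside lower Vim and slightly higher Cdh1 in the same libraries.

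Pdlim4 (ENSMUSG00000020388), a PDZ and LIM domain protein that binds actin-associated alpha-actinin, was the 6th lowest of all genes tested. It had 29.5 and 19.1 in wild-type and 6.58 and 2.86 in Bmal1-/- libraries, where the latter were 7 and 3 reads. The log2 fold change was −2.20 ± 0.45 (SE, limma adjusted p = 0.00032). Its size depended on the processing and lay between −3.11 and −1.22 over the alternatives that kept all libraries.

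Several members are neighbours on a chromosome, and the pairs differed in how alike their changes were. In mm9, Cldn6 and Cldn9 lie 138 bp apart on chromosome 17 on opposite strands, pointing toward each other. Cldn9 rose while Cldn6 did not pass the test, and the per-kilobase ratio of Cldn9 to Cldn6 went from 0.193 and 0.105 in wild-type to 0.743 and 0.775 in Bmal1-/- libraries. The library kit marks strand, but whether the counting used it is not given in the sources used here, and reads running past the end of either gene could then be given to the other. Cldn3 and Cldn4 lie 39.3 kb apart on chromosome 5, and both fell. Ocln and Marveld2 lie 43.2 kb apart on chromosome 13, with a rise of Ocln and a fall of Marveld2. Cdh1 and Cdh3 on chromosome 8 (46.4 kb) and Krt8 and Krt18 on chromosome 15 (23.9 kb) showed small log2 fold changes, of 0.13 and 0.06 for the cadherins and 0.15 and −0.04 for the keratins.

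**Figure D4:**
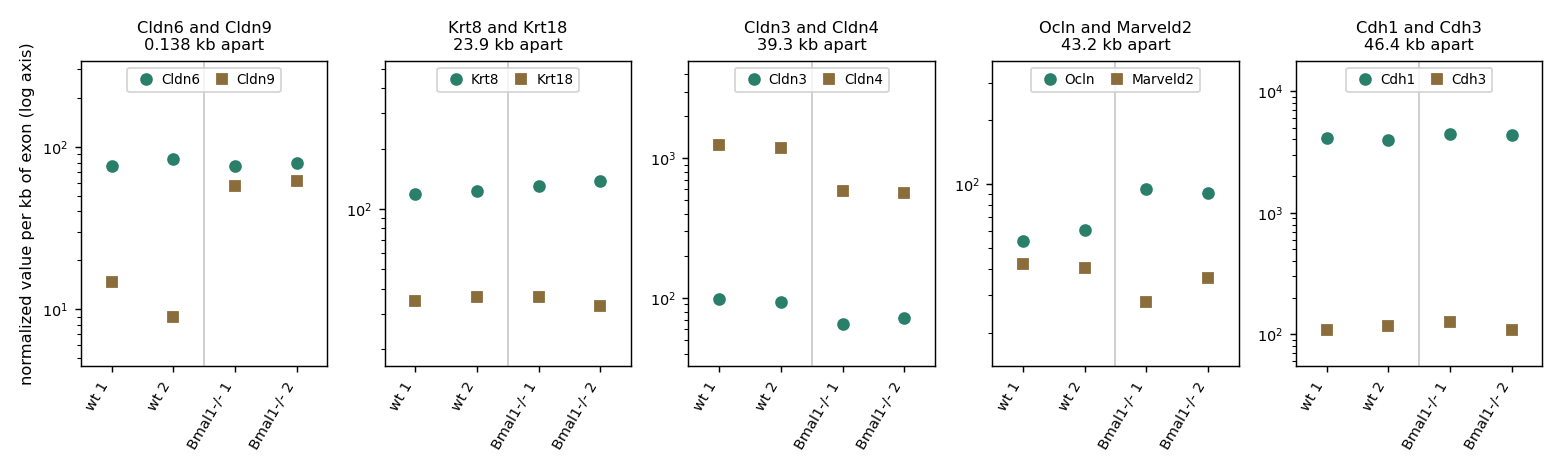
Normalized value per kilobase of exon (log axis) for the 5 pairs of members that lie under 100 kb apart, with 1 point per library and 1 panel per pair. The points of Cldn9 are far higher in Bmal1-/- libraries while those of Cldn6 stay in place, and Ocln and Marveld2 move in opposite directions.

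The Snai and Zeb type of E-box (CACCTG on either strand) was present in the windows of 15 of the 22 genes, or 19 of 31 windows, beside 20.2% of all 32851 promoters in the table. It was found in 7 of 10 matched genes that fell (Cldn3, Cldn4, Tjp3, F11r, Marveld2, Crb3 and Dsp), in 2 of 3 that rose (Ocln and Snai1) and in 6 of 9 that did not pass or were not tested. These classes cannot be compared by direction. The smallest held 3 genes, because most members that rose, among them Cdh1, Cldn9, Grhl2 and Zeb1, had no promoter entry. Esrp1, Marveld3 and Pkp2, which fell, had none either. Across all genes with an entry the share of this E-box was 22.6%. The printed Crb3 stretch holds it at 118, 63 and 7 bases before the start, and the Cldn4 stretch at 14 bases before. The canonical E-box (CACGTG, the same on both strands) was present in 3 of 31 windows, in Crb3, Epcam and Tjp3, beside 7.15% of all promoters. In Tjp3 it lies 55 bases before the start, and in Crb3 and Epcam it lies after a start, outside the printed stretches. In none of these 3 windows did it overlap the other E-box. The Grhl motif AACCGGTT, the same on both strands, was in none of the 22 genes and in 0.146% of all promoters. A match describes these windows and is not evidence of binding.

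The remaining genes of the same pathways were taken from 7 lists with 196 genes, of which 130 were tested. Of these 48 rose and 34 fell, where 24.0% and 28.6% of all genes tested did. Called genes numbered 19 (14.6%, against 7.21% of all genes), 13 higher and 6 lower, and the median log2 fold change was 0.04. The other adherens junction and nectin genes (17 tested) had 9 that rose and 3 that fell (70.6% changed, against 52.6% of all genes). Only Cdh22, a cadherin, was called (12.6 and 4.25 against 29.1 and 21.9, log2 fold change 1.63). N-cadherin (Cdh2), which replaces E-cadherin in EMT, fell from 215 and 174 to 123 and 126 (log2 fold change −0.63, limma adjusted p = 0.00033). Beta-catenin (Ctnnb1), the catenin that binds cadherin tails, had 14854 and 14648 against 15663 and 15413 and did not pass the test (log2 fold change 0.07, limma adjusted p = 0.094).

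Of the other tight junction and polarity genes (34 tested) 14 rose and 3 fell. The called genes were all higher: cingulin (Cgn), a scaffold of the tight junction, at 105 and 133 against 299 and 302 (log2 fold change 1.34), Marveld1 at 594 and 643 against 1681 and 1651 (1.43) and Cldn19 at 17.9 and 29.7 against 47.9 and 47.7 (1.02). The MARVEL genes Ocln and Marveld1 were thus higher and Marveld2 and Marveld3 lower in the Bmal1-/- libraries. Neither the fall of Marveld2 nor that of Marveld3 passed in DESeq2. Of the other desmosome and envelope genes (7 tested), 2 rose and 2 fell (57.1% changed, against 52.6% of all genes). Perp, a desmosome protein that is also a p53 target, was called lower (434 and 438 against 204 and 208, log2 fold change −1.08).

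Of the other keratins 2 of 6 tested were called, both lower (33.3%, against 7.21% of all genes tested). Krt42 fell from 1150 and 1221 to 357 and 310 (log2 fold change −1.83 ± 0.07 SE, limma adjusted p = 4.9e-14). Krt17 fell from 223 and 221 to 77.0 and 61.0 (log2 fold change −1.68 ± 0.14 SE, limma adjusted p = 5.1e-09). Both are type I keratins, lie 1.85 kb apart on chromosome 11 and are similar in sequence, so that shared reads could tie their values together. Per kilobase, Krt42 had a level of 672 in the wild-type mean and 189 in the Bmal1-/- mean.

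Of the other epithelial regulators and markers (24 tested) 13 fell and 6 rose, with a median log2 fold change of −0.33. Together 79.2% changed, against 52.6% of all genes tested. Rab25, a GTPase of apical recycling, was called lower (59.0 and 38.2 against 21.6 and 14.3, log2 fold change −1.38), and Myo5b, a motor of the same recycling route, was called higher (23.2 and 19.1 against 71.4 and 54.4, 1.52). Ovol2, a repressor of EMT factors, fell under 2-fold (94.8 and 78.6 against 44.2 and 45.8, −0.93), as did Grhl3, a relative of Grhl2 (400 and 444 against 287 and 316, −0.48). Grhl2 and Grhl3 therefore differed in sign. Rbm47, another epithelial splicing regulator, had 403 and 380 against 191 and 200, which is 49.9% of the wild-type mean, and was not called because its change on the log2(value + 1) scale lay just inside the limit.

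The other mesenchymal genes (30 tested) included 14 that rose and 6 that fell, with a median log2 fold change of 0.33. Together 66.7% changed, against 52.6% of all genes tested. Called higher were Tgfbr2, Pdgfrb, Prrx2, Cald1, Fbn1, Itgb3 and Mmp2, with log2 fold changes from 1.00 to 1.93, and 1 gene of the list, not reported here, was called lower. Cald1, the actin-binding protein caldesmon, went from 224 and 205 to 488 and 492, and Fbn1, the matrix protein fibrillin 1, from 84.3 and 70.1 to 162 and 160. Fibronectin (Fn1), a matrix protein that is abundant in mESCs, rose by less than 2-fold (30416 and 27815 against 37155 and 36197, 0.33). Vim, at −1.67, lay below the lowest gene of this list.

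**Figure D5:**
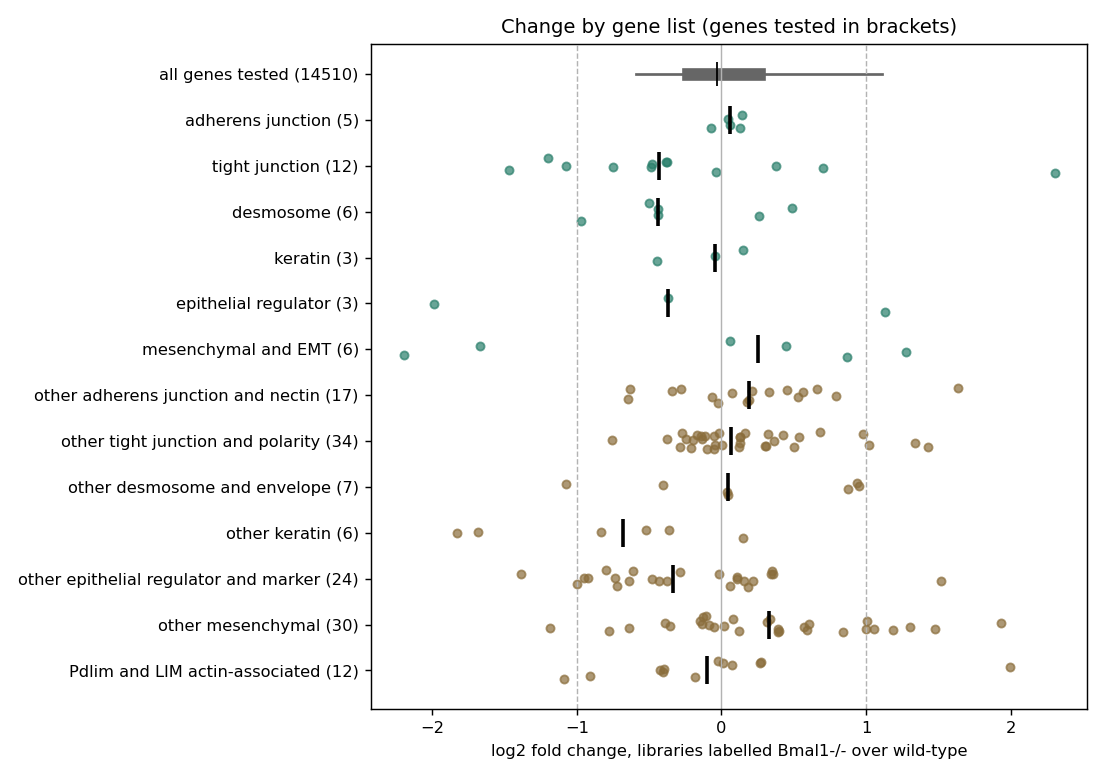
Log2 fold changes (Bmal1-/- against wild-type) of the members by role and of the 7 lists of related genes, with 1 point per gene tested (green for members, brown for related genes) and a bar at each median. For all genes the box spans the quartiles and the line the 5th to 95th percentile. Lists of tight junction and desmosome members have medians near −0.4, whereas other tight junction genes centre near 0 and other mesenchymal genes near 0.3.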

How the data were processed

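Total RNA of 2 wild-type and 2 Bmal1-/- JM8 mESC libraries was made into stranded mRNA libraries and sequenced with paired 75-bp reads by the authors. The submitters' processing notes name bcl2fastq 2.18.0.12, cutadapt 1.9.1 and STAR 2.5.2b, with mm9 as the build. The read counter is not given in the sources used here. The deposited signal per gene is its number of counted reads scaled by a TMM factor of the library. In each library 100% of the values were whole multiples of 1 number (within 0.01 of a read), and these multiples were taken as the whole reads. Genes with a mean of at least 10 (14510 of 37310) were tested on log2(value + 1) with limma 3.58.1 (lmFit and eBayes with trend, R 4.3.3), wild-type against Bmal1-/-, with no covariate. P-values were adjusted by the Benjamini-Hochberg method over all genes tested, and called genes had a fold change above 2 and an adjusted p under 0.05. Without fold limit, "rose" and "fell" mean an adjusted p under 0.05. Intervals are 95% intervals of the limma fit. The prior degrees of freedom of this fit were 18.1, so the variance of a gene was drawn largely from all genes tested. edgeR 4.0.16 and DESeq2 1.42.0 on the whole reads, other filters, pseudocounts and scalings, the replicate number as a block and leaving out each library were the alternatives. A fit with 1 library left out has 1 library in that group. Its p-values then rest on the spread of the other group and on the variance shared across genes. The test was tried on simulated data first.

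Levels per kilobase are values divided by the summed exon length in GENCODE vM1 (NCBIM37, which is mm9). The 38 genes and the lists were chosen with earlier results of these data known. All 38 are named, and of the 196 related genes those called with groups that did not overlap, plus genes a list is best known for. The result of 1 of these, called lower in the list of other mesenchymal genes, is not reported here. Tables were made in Python 3.11.15 (pandas 2.3.3, numpy 2.4.6) and plots with matplotlib 3.10.9. Exons of some members overlap a gene on the other strand, with no single overlap above 5.05% of a member's exon length (Esrp2 with Nfatc3). Esrp2 also overlaps 1810019D21Rik, for 2.74% of its exon length. The number of reads on genes limits the precision of low genes such as Pdlim4 and Krt7. For 16 members no promoter entry was found, so their promoters were not analysed here.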

Additional observations from a re-analysis of the deposited data

How the results depend on the processing

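Of 513 comparisons of a member's log2 fold change with an alternative, 473 kept direction and side of the threshold, 26 lost and 4 gained an adjusted p under 0.05, and 10 turned sign, all in genes that did not pass the test. These were Cdh3 (−0.046 to 0.16 with single libraries left out), Cldn6 (0.022 with equal library totals, −0.11 to 0.037 with single libraries left out), Dsc2 (−0.042 with quantile normalization, −0.074 to 0.59), Krt18 (0.015 with equal totals, −0.12 to 0.029) and Twist1 (−0.23 with quantile normalization, −0.13 to 0.24). With a mean of at least 100, which leaves fewer genes, 3 members were called lower and 0 higher, 6 had an adjusted p under 0.05 and were higher, 6 related genes were called higher, and the median of the members was −0.37. That median was −0.0099 with equal library totals and −0.30 with quantile normalization, and the cause was not tested. Related genes called higher numbered 8 with a pseudocount of 10, and those called lower 12 with quantile normalization. Leaving out each library in turn gave 1 to 4 members called higher (1 without wild-type replicate 2, when Grhl2 and Snai1 fell under 2-fold), 5 to 6 called lower, 8 to 10 higher and 13 to 15 lower with an adjusted p under 0.05, 11 to 14 related genes called higher and 6 to 9 lower, and medians of −0.13 to −0.07. The call of Cldn4, Crb3 and Vim was kept under all 15 alternatives, and that of Cldn9, Esrp1 and Pdlim4 under the 14 that tested them. Counts over all genes called were 318 of 10486 with a mean of at least 100 and 704 with a pseudocount of 10, against 1046. The labels do not say whether the replicate numbers pair the samples. The correlation of the replicate differences was −0.02, which gave no sign of pairing but cannot exclude it. With the replicate number as a block 9 members were called, all 9 shared with the fit without the block, 10 were higher and 15 lower with an adjusted p under 0.05, 13 related genes were called higher and 6 lower, and the median was −0.07. Low read numbers limit Marveld3, Pdlim4 and Krt7.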

Other observations

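The LIM domain and actin-associated genes, the family of Pdlim4, held 12 tested genes of 15 listed, of which 3 rose and 5 fell. Together 66.7% changed, against 52.6% of all genes tested. Pdlim3, a relative of Pdlim4 found at the Z-discs of muscle, was called higher, from 9.48 and 19.1 to 51.7 and 62.9 (log2 fold change 2.00 ± 0.30 SE, limma adjusted p = 1.4e-05), so that Pdlim3 and Pdlim4 differed in sign. Fhl3, a LIM protein that binds actin, was called lower, with 254 and 249 in wild-type against 113 and 122 (−1.09 on the log2 scale). Csrp2, a cysteine and glycine rich LIM protein, fell by less than 2-fold, from 2681 and 2791 to 1503 and 1412 (−0.91), and Csrp1 from 2392 and 2199 to 1760 and 1728 (−0.39).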
